A study of Mus musculus with 12 samples.

Results

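The genes described here encode the nuclear subunits of the mitochondrial respiratory chain and of ATP synthase. They were taken by symbol, as every gene named on the array that starts with Nduf followed by a, b, c, s or v, with Sdha to Sdhd, Uqcr or Cyc1, with Cox4 to Cox8 or with Atp5, leaving out the Ndufaf assembly factors. That gave 86 genes of 20018 named on the array. They were 36 genes of complex I, 4 of complex II, 9 of complex III, 20 of complex IV and 17 of ATP synthase, with Ndufa4 and Ndufa4l2 counted under complex IV. Of the 86, 81 passed the filter on dim probes and were tested, and 78 lay well above background on all 12 arrays. None of the 13 subunits encoded in mitochondrial DNA was named on the array, so those are not analysed here.

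Splenic B cells of mice were compared in a design of 2 genotypes and 2 states, with 3 arrays in each of the 4 groups. All groups carried B1-8hi, a rearranged immunoglobulin heavy chain gene that gives B cells a receptor for the hapten NP, and floxed Sub1 alleles (B1-8hi:Sub1fl/fl). The knockout group carried Mb1-Cre as well (B1-8hi:Sub1fl/fl-Mb1-Cre), a recombinase inserted in the Cd79a locus and active in the B lineage, and is meant to lack Sub1, which encodes the chromatin protein PC4. Control mice had no Cre, so an effect of the deletion and one of the Cre allele cannot be told apart. Resting cells are labelled naive, and stimulated cells were taken after 72 h. The culture text, which every sample carries, names the cytokines IL-2 (100 U/mL), IL-4 (5 ng/mL) and IL-5 (1.5 ng/mL) beside CD40 ligand at 0.2 ng/mL and the antigen NP-ficoll at 0.01 ng/mL. Neither the age of the mice nor whether replicates came from separate animals is given in the sources used here, so a p-value here is set against a variation among samples that could be technical alone.

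Complexes I and II pass electrons from NADH and succinate to ubiquinone, complex III passes them on to cytochrome c, and complex IV hands them to oxygen. Complexes I, III and IV pump protons across the inner mitochondrial membrane, and ATP synthase uses the returning protons to make ATP. Most subunits are encoded in the nucleus, and B cells that become activated and divide are known to enlarge their mitochondria and raise oxygen consumption.

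Levels below are log2 values of the processed Cy3 signal relative to the array's 75th percentile, so that 0 is the signal at that percentile, and a difference of 1 is a 2-fold change. A level belongs to 1 probe, and levels of different genes are not set against each other. Between 24.3% and 76.8% of the spots of an array lay well above background, the lowest share being in control stimulated replicate 2. As a check of the labels, Sub1 was lower in knockout cells by 1.21 after stimulation (SE 0.19, adjusted p = 0.0114), while in resting cells the difference of -0.38 missed the threshold (adjusted p = 0.268). That resting difference was near the median of -0.35 over the 10264 features well above background on all 12 arrays, so the check rests on the stimulated arrays. Sub1 also rose with stimulation in knockout cells, by 1.19 (adjusted p = 0.00179 in limma), to a mean level of 6.84. The place of the Sub1 probe relative to the deleted part was not examined.

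Stimulation went with higher levels of nearly the whole set. In control cells 67 of 81 tested genes rose and none fell, at an adjusted p under 0.05 in limma, with a median change of 0.92 and a range from 0.03 to 1.71. Over all 22981 features tested, 14.7% were called higher and the median change was 0.04. Among the 10264 features well above background on all 12 arrays, which are the better match in brightness, 27.5% were called higher and the median was 0.21. The knockout cells gave 49 genes that rose and none that fell, with a median of 0.75, against 10.9% of all features and 19.8% of the features above background on all arrays, whose median was 0.23. All 49 were among the 67 of the control cells (73.1% of 67), and 14 genes were called in neither genotype. The levels of resting and stimulated arrays did not overlap for 76 of 81 genes in control cells and for 73 in knockout cells, always with the stimulated arrays higher. The same held for 20.3% and 21.8% of all features, and for 36.4% and 37% of those above background on all arrays.

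The 78 genes above background on every array were higher together on the stimulated arrays. Their median level was 4.99, 4.95 and 4.99 in control resting replicates 1, 2 and 3, and 6.09, 5.64 and 6.02 in control stimulated replicates. The knockout medians were 4.48, 4.66 and 4.80 at rest and 5.57, 5.57 and 5.32 after stimulation. All 6 stimulated arrays thus lay above all 6 resting ones. The stimulated control arrays were the most spread, at 5.92 ± 0.24 (SD, n = 3) against 4.98 ± 0.02 at rest, with replicate 2 lower than the other two. Measured above the median of all features that lie above background on every array, the same replicate did not stand apart: the excess was 3.01, 3.01 and 3.14 in the control stimulated arrays and 2.23, 2.31 and 2.34 in the control resting arrays. The corresponding values in knockout cells were 2.91, 3.09 and 2.82 after stimulation and 2.27, 2.29 and 2.34 at rest, so that resting arrays of both genotypes overlapped on this measure and all stimulated arrays were higher.

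**Figure D1:**
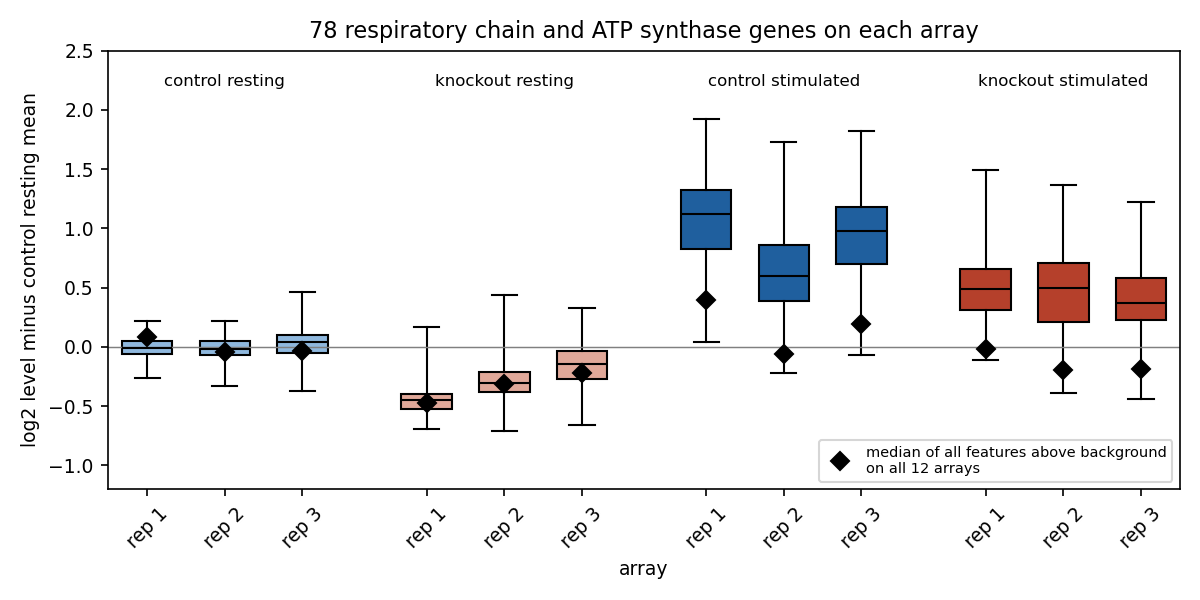
Levels of the 78 genes above background on all 12 arrays (vertical axis, log2 level minus each gene's mean over the control resting arrays) on every array (horizontal axis), with boxes for the quartiles, a line for the median and whiskers for the full range; diamonds give the median of all features above background on all arrays on the same scale. The medians of the control stimulated arrays are 1.12, 0.60 and 0.98 and those of the knockout stimulated arrays 0.49, 0.50 and 0.37, each above its diamond, while in the knockout resting arrays (-0.45, -0.31 and -0.15) the diamonds lie within the boxes.

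All 5 complexes held genes that rose in both genotypes. In control cells the median change was 0.90 in complex I (29 of 36 called), 0.88 in complex II (3 of 4), 0.94 in complex III (8 of 9), 0.97 in complex IV (13 of 15) and 0.90 in ATP synthase (14 of 17). In knockout cells it was 0.74 (22 of 36), 0.64 (1 of 4), 0.74 (4 of 9), 0.76 (9 of 15) and 0.78 (13 of 17) in the same order. The difference between complexes was not tested.

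**Figure D2:**
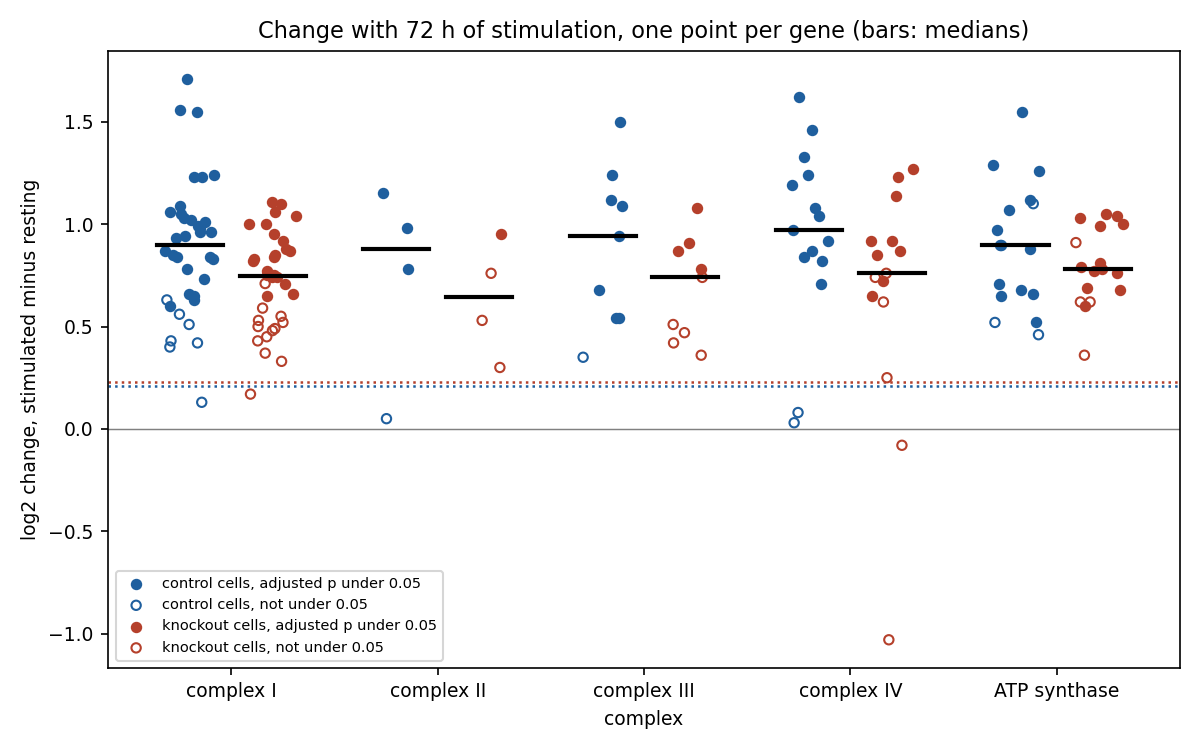
Change with stimulation of each tested gene (vertical axis, log2 stimulated minus resting) by complex (horizontal axis), control cells in blue and knockout cells in red; filled points have an adjusted p under 0.05, black bars are medians over genes, and dotted lines are the medians of all features above background on all 12 arrays (0.21 in control and 0.23 in knockout cells). All bars lie between 0.64 and 0.97, above both dotted lines, and the lowest point is Cox6a2 in knockout cells at -1.03.

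In complex I the largest increase belonged to Ndufab1, the mitochondrial acyl carrier protein, which carries growing fatty acids and also sits in the complex. Its level was 0.02, 0.24 and 0.11 in control resting replicates 1, 2 and 3 and 2.04, 1.85 and 1.60 in stimulated ones; in knockout cells it was 0.29, 0.56 and 0.30 at rest and 1.61, 1.49 and 1.34 after stimulation. Resting and stimulated arrays were far apart in both genotypes, and at rest the knockout arrays were the higher ones, the reverse of most of the set. The change was 1.71 in control cells (SE 0.18, 3.27-fold, adjusted p = 7.31e-05) and 1.10 in knockout cells (SE 0.18, adjusted p = 0.00244).

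Ndufb6, a small subunit of the membrane arm, was at 3.55, 3.58 and 3.36 in control resting cells and at 5.38, 4.78 and 5.02 after stimulation. The knockout arrays went from 3.09, 3.36 and 3.23 to 4.48, 4.44 and 4.11. The lowest stimulated control array thus lay above the highest stimulated knockout array. The change was 1.56 in control cells (adjusted p = 0.000246) and 1.11 in knockout cells (adjusted p = 0.00411). Ndufv3, a subunit of the module that oxidises NADH, behaved alike, with 5.07, 5.17 and 5.39 at rest and 6.81, 6.66 and 6.83 after stimulation in control cells, and 4.77, 4.94 and 5.25 at rest and 5.99, 6.01 and 6.13 after stimulation in knockout cells. Its stimulated control arrays varied little and none came near the knockout arrays. Ndufv3 rose by 1.55 in control cells (adjusted p = 0.000128) and by 1.06 in knockout cells (adjusted p = 0.00282). These values are of its brightest probe, and its second probe rose less, by 0.59 and 0.30. Ndufb8, another membrane arm subunit, rose by 1.24 and 0.88, and Ndufa12, of the peripheral arm, by 1.23 and 1.04 in control and knockout cells.

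The subunits known to carry the flavin or the iron-sulphur clusters of complex I are Ndufv1, Ndufv2, Ndufs1, Ndufs7 and Ndufs8, named here for their role after their values had been seen. Their changes in control cells ran from 0.40 to 0.99. Ndufv1, which binds the flavin that takes electrons from NADH, changed by 0.96 in control cells (SE 0.26, adjusted p = 0.0184), and by 0.75 in knockout cells, where it missed the threshold (adjusted p = 0.0823). Ndufs1, the largest iron-sulphur subunit, changed by 0.63 (SE 0.21, adjusted p = 0.0490) and 0.50 (adjusted p = 0.152), and Ndufv2, a further iron-sulphur subunit, by 0.93 (adjusted p = 0.00381) and 0.82 (adjusted p = 0.0133). Ndufs8 changed by 0.99 (adjusted p = 0.0122, and 0.0584 without control resting replicate 1) and 0.71 (adjusted p = 0.0821), and Ndufs7, the smallest change of these 5, was called in neither genotype, at 0.40 (adjusted p = 0.180) and 0.37 (adjusted p = 0.264). In complex I 7 of 36 genes were not called in control cells, and their changes ran from 0.13 to 0.63. The lowest was Ndufa6, a subunit that binds the acyl carrier protein in the complex. Its level was 5.13, 5.04 and 4.92 at rest and 5.27, 4.90 and 5.31 after stimulation in control cells, and 4.56, 4.64 and 4.59 at rest and 4.94, 4.77 and 4.59 after stimulation in knockout cells. The states overlapped in both genotypes, with changes of 0.13 (adjusted p = 0.692) and 0.17 (adjusted p = 0.632). With quantile normalization in place of the 75th percentile Ndufa6 was called lower in stimulated control cells (-0.40, adjusted p = 0.0474).

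Complex II, which is also an enzyme of the tricarboxylic acid cycle, was split. Sdha, the flavoprotein that binds succinate, was at 4.50, 4.34 and 4.58 in control resting cells and 4.83, 4.35 and 4.40 after stimulation. In knockout cells it was at 3.78, 3.93 and 4.18 at rest and 4.40, 4.08 and 4.31 after stimulation. The states overlapped in both genotypes, and the change was 0.05 in control cells (SE 0.20, adjusted p = 0.894) and 0.30 in knockout cells (adjusted p = 0.407). Sdhd, one of the membrane anchors, was at 4.06, 4.10 and 3.91 in control resting cells and 5.49, 5.13 and 4.89 after stimulation. Knockout arrays went from 3.66, 3.90 and 4.01 to 4.90, 4.76 and 4.74. No resting array reached a stimulated one, and Sdhd rose by 1.15 (adjusted p = 0.00134) in control and 0.95 (adjusted p = 0.00772) in knockout cells. Sdhb, the iron-sulphur subunit, rose in control cells by 0.78 (SE 0.20, adjusted p = 0.0149), as did the other anchor Sdhc by 0.98 (SE 0.29, adjusted p = 0.0260). Neither passed in knockout cells, at 0.53 (adjusted p = 0.115) and 0.76 (adjusted p = 0.109), and the control calls were lost under 11 of 24 alternative settings for Sdhb and 12 of 24 for Sdhc, each with the same sign throughout. For Sdhb these included leaving out control resting replicate 1 or 2 (adjusted p = 0.0711 and 0.0659) or control stimulated replicate 3 (0.0520). For Sdhc they included leaving out control resting replicate 1 or 3 (0.0631 and 0.105), control stimulated replicate 1 or 2 (0.0934 and 0.0509) or knockout stimulated replicate 2 (0.0591).

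In complex III the largest increase was that of Uqcrq, a small subunit. Uqcrq was at 5.47, 5.42 and 5.50 in control resting cells and 7.10, 6.50 and 7.28 after stimulation. The knockout levels were 4.95, 5.19 and 5.53 at rest and 5.99, 6.15 and 6.26 after stimulation. Every stimulated control array was above every stimulated knockout array, while the resting arrays of the genotypes overlapped. The increase was 1.50 in control cells (SE 0.23, 2.82-fold, adjusted p = 0.000800) and 0.91 in knockout cells (SE 0.23, adjusted p = 0.0237), the latter lost under 12 of 24 settings, among them leaving out any 1 knockout array but resting replicate 3. Uqcr11 rose by 1.24 and 0.78 and Uqcr10 by 1.12 and 1.08 in control and knockout cells. Uqcrfs1, the Rieske iron-sulphur protein, rose by 1.09 (adjusted p = 0.00291) in control and 0.87 (adjusted p = 0.0180) in knockout cells. Cyc1, which is cytochrome c1 and was named for its role after its value was seen, rose by 0.94 in control cells (adjusted p = 0.0124). In knockout cells its change of 0.74 missed the threshold (adjusted p = 0.0577). Uqcrh, the hinge protein that helps cytochrome c dock, was the 1 gene of complex III not called in control cells, with 0.35 there (adjusted p = 0.174) and 0.42 in knockout cells (adjusted p = 0.145), although its resting and stimulated arrays did not overlap.

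In complex IV the largest increases with calls in both genotypes were those of Ndufa4, Cox5a and Cox5b. Ndufa4, once counted to complex I and now placed in complex IV, was at 4.20, 4.18 and 4.07 in control resting cells and 5.85, 5.47 and 5.50 after stimulation, and in knockout cells it went from 3.79, 4.10 and 3.96 to 5.26, 5.39 and 5.01. It rose by 1.46 in control cells (adjusted p = 0.000214) and 1.27 in knockout cells (adjusted p = 0.00113), and neither call was lost in any of 24 settings. Cox5a rose by 1.24 and 1.23 and Cox5b by 1.19 and 1.14, all 4 called. The responses of Cox5a and Cox5b in the genotypes were within 0.05 of each other, with an SE of 0.25 and 0.26 on that difference. Cox6c rose by 0.87 in control cells (adjusted p = 0.00213) and by 0.92 in knockout cells (adjusted p = 0.00301).

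Several complex IV subunits exist as paralogues that are used in different tissues. The widely used forms were above background on all arrays and rose with stimulation in control cells: Cox4i1 by 0.84, Cox6a1 by 1.04, Cox6b1 by 0.92, Cox7a2 by 1.08, Cox7b by 0.97 and Cox8a by 0.82. All but Cox6b1 also passed in knockout cells, with increases of 0.65 to 0.92, and Cox6b1 missed there at 0.76 (adjusted p = 0.0761). The 5 genes not tested were all restricted paralogues. Cox4i2, a lung form, and Ndufa4l2 were well above background on 6 arrays each, Cox8c, a testis form, on 5, Cox7b2, also of testis, on 1 and Cox8b, of heart and skeletal muscle, on none. These counts are of arrays from any group, and no group had all 3 arrays above background. Cox6b2, a testis form, passed the filter and changed by 0.08 (adjusted p = 0.875) in control and -0.08 (adjusted p = 0.897) in knockout cells.

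Cox6a2, the heart and skeletal muscle form of subunit VIa, was dim, and the genotypes were ordered differently in the 2 states. Its level was -2.92, -2.26 and -1.87 in control resting cells, with 1 of 3 arrays above background, and -0.11, -0.17 and -1.58 in knockout resting cells, with 3 of 3. After stimulation it was -1.30, 0.07 and -0.97 in control cells and -1.83, -1.51 and -1.60 in knockout cells, with 2 of 3 arrays above background in each. Cox6a2 thus passed the filter through knockout resting cells alone, the group where it was highest, so its differences from that group are a description and its resting control level is mostly not above background. The knockout arrays were thus all higher at rest and all lower after stimulation. The increase with stimulation in control cells was called, at 1.62 (SE 0.46, adjusted p = 0.0225), and was lost under 7 of 23 settings, among them leaving out control resting replicate 1 (1.34, adjusted p = 0.106), control resting replicate 2 (1.66, adjusted p = 0.0550) or control stimulated replicate 2 (1.22, adjusted p = 0.0790). The knockout difference at rest was 1.73 (SE 0.46, adjusted p = 0.183), made up of 2.45 on slide 1 and 0.29 on slide 2. Cox7a1, the muscle form of subunit VIIa, was at -0.84, -0.55 and -1.14 in control resting cells and 0.47, 1.19 and -0.19 after stimulation. In knockout cells it was at -1.14, 0.10 and -1.24 at rest and 0.13, 0.23 and -0.42 after stimulation. The states were apart in control cells and overlapped in knockout cells, with a control change of 1.33 (SE 0.42, adjusted p = 0.0369) that was lost under 15 of 23 settings, against 0.74 (adjusted p = 0.307) in knockout cells. Those settings included leaving out control resting replicate 1, 2 or 3 (adjusted p = 0.103, 0.0573 and 0.118), control stimulated replicate 1 or 2 (0.0821 and 0.125), knockout resting replicate 1 (0.0528) and knockout stimulated replicate 1 or 2 (0.0543 and 0.0714).

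Cox7a2l resembles subunit VIIa in sequence but is known as a factor that joins complexes III and IV into supercomplexes, and it had the smallest change of the set in control cells. Its level was 7.32, 7.35 and 7.38 in control resting cells and 7.39, 7.13 and 7.62 after stimulation. The knockout arrays read 6.81, 6.94 and 7.03 at rest and 7.24, 7.15 and 7.16 after stimulation. Control resting arrays lay inside the range of the stimulated ones, with a change of 0.03 (SE 0.17, adjusted p = 0.942). In knockout cells every stimulated array lay above every resting one, with a change of 0.25 that was not called (adjusted p = 0.414).

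In ATP synthase the c subunit forms the rotating ring in the membrane. The 3 genes Atp5g1, Atp5g2 and Atp5g3 encode the same mature protein with different import sequences. Atp5g1 was at 5.54, 5.62 and 5.72 in control resting cells and 7.45, 6.69 and 7.39 after stimulation, and at 5.19, 5.22 and 5.63 in knockout resting cells and 6.38, 6.39 and 6.24 after stimulation. Atp5g3 was at 6.06, 6.05 and 6.15 at rest and 7.47, 7.06 and 7.49 after stimulation in control cells, and at 5.59, 5.90 and 5.96 at rest and 6.79, 6.91 and 6.85 after stimulation in knockout cells. Atp5g2 was at 7.53, 7.59 and 7.35 at rest and 8.36, 7.96 and 8.21 after stimulation in control cells, and at 6.95, 7.14 and 7.01 at rest and 7.85, 7.86 and 7.42 after stimulation in knockout cells. For each of the 3 genes all stimulated arrays exceeded the resting arrays of their genotype. The increases in control cells were 1.55 for Atp5g1 (2.93-fold, adjusted p = 0.000572), the largest of ATP synthase there, 1.26 for Atp5g3 (adjusted p = 0.000528) and 0.68 for Atp5g2 (adjusted p = 0.0215), and in knockout cells 0.99, 1.03 and 0.68, all called. Atp5g2 lay below the median of ATP synthase in both genotypes. Of the membrane and stalk subunits, Atp5j2 rose by 1.29 and 1.04, Atp5j by 1.12 and 1.05 and Atp5k by 1.07 and 1.00 in control and knockout cells. The subunits of the catalytic head, named for their role after their values were seen, rose as well: Atp5a1 by 0.52 (adjusted p = 0.0492) and 0.60 (adjusted p = 0.0416), and Atp5b by 0.90 (adjusted p = 0.00546) and 0.79 (adjusted p = 0.0193). Atp5o, of the peripheral stalk and also named after its values were seen, was not called, with changes of 1.10 (SE 0.38, adjusted p = 0.0526) and 0.91 (adjusted p = 0.145).

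**Figure D3:**
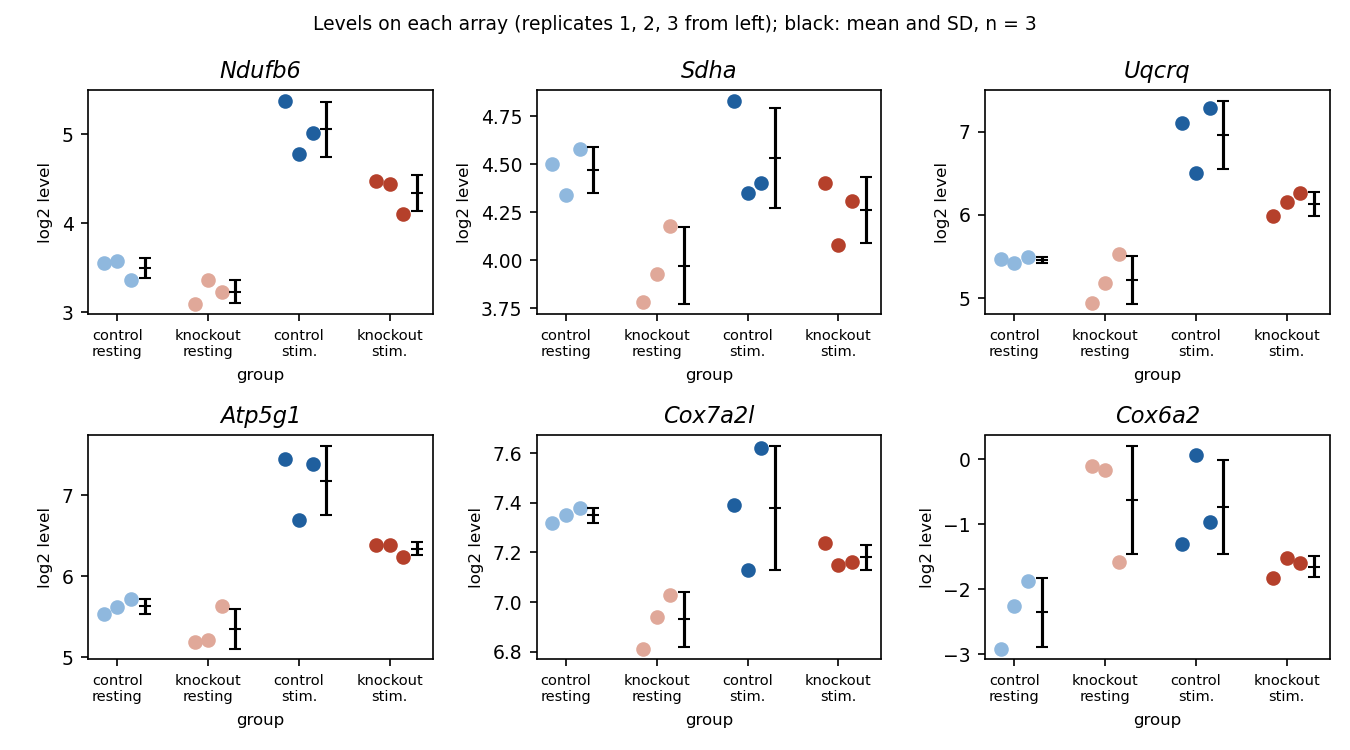
Levels (vertical axes, log2 relative to the array's 75th percentile, a separate scale in each panel) of 6 genes on the 12 arrays by group, with the mean and SD of 3 arrays in black. Ndufb6, Uqcrq and Atp5g1 are higher on every stimulated array, Sdha and Cox7a2l overlap between states in control cells, and Cox6a2 is higher in knockout than control arrays at rest and lower after stimulation.

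The number of genes called depended on single arrays. In knockout cells the 49 fell to 10 without knockout stimulated replicate 2, to 16, 22 and 23 without knockout resting replicate 1, knockout resting replicate 2 and knockout stimulated replicate 1, while the median stayed between 0.68 and 0.82. The filter then kept more features, 30356 without knockout stimulated replicate 2. Of the 49 calls 10 held whichever 1 array was left out, among them those of Atp5g3, Atp5j, Cox5a, Cox5b, Cox6c, Ndufa4, Ndufab1, Ndufb6 and Ndufv3. Of the genes chosen by rule for knockout cells, Atp5j2, Atp5k, Ndufa12, Sdhd, Uqcr10, Uqcr11, Uqcrfs1 and Uqcrq lost the call without knockout stimulated replicate 2, with changes of 0.70 to 1.03 and adjusted p of 0.0505 to 0.157. Some of these were also lost without knockout resting replicate 1 (Atp5j2, Uqcr11, Uqcrfs1, Uqcrq), knockout resting replicate 2 (Atp5j2, Uqcr11, Uqcrq), knockout resting replicate 3 (Uqcrfs1), knockout stimulated replicate 1 (Uqcr11, Uqcrfs1, Uqcrq) or knockout stimulated replicate 3 (Uqcrq). The other knockout calls named above were lost without knockout stimulated replicate 2 as well, with adjusted p of 0.0777 for Ndufv2, 0.0906 for Ndufb8, 0.119 for Cox4i1, 0.216 for Cox6a1, 0.101 for Cox7a2, 0.0878 for Cox7b, 0.0995 for Cox8a, 0.0938 for Atp5g1, 0.220 for Atp5g2 and 0.172 for Atp5a1, and Atp5b had 0.0910 without knockout resting replicate 1. In control cells the 67 fell to 44 without control resting replicate 1 and to 27 without both arrays of control replicate 1, and the median with 1 array left out stayed between 0.78 and 1.02. Of the 67 calls 42 held whichever 1 array was left out. Among named genes outside complex II and the muscle forms, Ndufs1 and Atp5a1 lost the control call without 11 of the 12 arrays in turn (adjusted p up to 0.153 and 0.167), Atp5g2 without 6 (up to 0.0844, control resting replicate 3), Ndufv1 without 4 (up to 0.0759, control resting replicate 2), Cox6b1 without 4 (up to 0.0908, control resting replicate 1), Cox8a without control resting replicate 1 (0.0549) and Cyc1 without control resting replicate 2 (0.0535). Among the 22 genes with several probes, Cox7a2l was the 1 gene whose probes differed in sign for stimulation in control cells, and there was none in knockout cells. Between knockout and control the signs differed at rest for 2 genes, Ndufb5 (-0.33 and 0.03) and Ndufv3 (-0.23 and 0.20). After stimulation they differed for 1, Cox7c (from -0.65 to 0.11). For the knockout difference after stimulation minus that at rest they differed for 4 genes. These were Atp5c1 (0.02 and -0.23), Ndufa5 (0.07 and -0.17), Ndufb11 (-0.29 and 0.60) and Cox7c (from -0.44 to 0.49). Control stimulated cells also had lower B cell markers, called for 9 of 10 with Ebf1 (-2.09) and Cd22 (-2.04) lowest, and the summed level of the list went from between 9.96 and 10.16 to between 9.06 and 9.55. The myeloid markers fell by a median of 2.04 with stimulation in control cells (6 of 11 called lower; summed level from between 5.50 and 6.27 to between 3.43 and 4.73), and the erythroid markers by a median of 2.75. In the same cells 2 of 7 NK cell markers rose, Gzmb by 7.25 and Gzma by 4.16 (summed level from between 2.48 and 3.18 to between 5.14 and 5.22), and 2 of 8 T cell markers, Thy1 by 5.70 and Lck by 0.91, while Cd8a fell (summed level from between 3.74 and 4.08 to between 5.78 and 6.10). In knockout cells stimulation went with 2 of 10 B cell, 5 of 11 myeloid and 5 of 5 erythroid markers called lower. There 4 of 7 NK cell markers (summed level from between 2.92 and 3.46 to between 7.78 and 8.73) and 2 of 8 T cell markers were called higher. The part of these shifts in the results for the subunits was not tested, and in these bulk samples fewer cells of a type and less RNA per cell cannot be told apart.

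Other genes of mitochondrial energy metabolism had lower medians as groups, a difference that was not tested. The counts below stand against 14.7% of all features called higher in control cells (27.5% of those above background on all arrays) and 10.9% (19.8%) in knockout cells, so a count near these shares, such as 2 of 15, is no result about its list. Among 15 tested assembly factors of complex I, 2 rose and none fell in stimulated control cells, with a median of 0.21; Ndufaf2 rose by 1.27 and Ecsit by 0.65. Of 9 assembly factors of complexes II and III, 2 rose and 1 fell (median -0.01), led by Uqcc2 at 1.00, while Sdhaf4 fell by 0.73. The 21 assembly factors of complex IV gave 7 that rose (median 0.47), with Cmc2 at 1.89 and Cox19, a copper chaperone, at 1.07. Of 4 assembly and regulatory genes of ATP synthase 3 rose (median 0.67), with the inhibitor Atpif1 at 1.40 and Atpaf2 at 0.76. These medians compare with 0.21 over the features above background on all arrays, and 4 of the 8 lists described here lay above it.

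Among 17 genes of electron carriers and ubiquinone synthesis 6 rose and 1 fell (median 0.12), namely Coq7 with the largest increase at 1.30 and Coq8a, a kinase-like protein of the ubiquinone pathway, with -1.55. Of 16 enzymes of the tricarboxylic acid cycle 6 rose (median 0.61), with Idh3a at 0.95 and Mdh2 at 0.87. Of 9 ADP/ATP and phosphate carriers, porins and uncoupling proteins 5 rose (median 0.62), with the ADP/ATP carrier Slc25a5 at 1.05 and the porin Vdac1 at 1.03. The 16 genes of mitochondrial gene expression and biogenesis differed, with 1 that rose, 3 that fell and a median of -0.23. Esrra, a nuclear receptor known to act on respiratory genes, fell by 1.12 (adjusted p = 0.00175), and Mterf1a, a mitochondrial transcription termination factor, by 0.84. In knockout cells 2 of those 16 rose and none fell (median 0.08), namely Polg2 by 0.95 and Tfb1m by 0.78, and the other 7 lists had medians between 0.14 and 0.74. There 1 of 15 complex I assembly factors rose, 2 of 9 for complexes II and III, 4 of 21 for complex IV and 2 of 4 for ATP synthase, 4 of 17 carriers and ubiquinone genes (1 fell), 3 of 16 cycle enzymes and 5 of 9 ADP/ATP and phosphate carriers, porins and uncoupling proteins. Cmc2, at 1.73, again rose most among the assembly factors of complex IV.

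**Figure D4:**
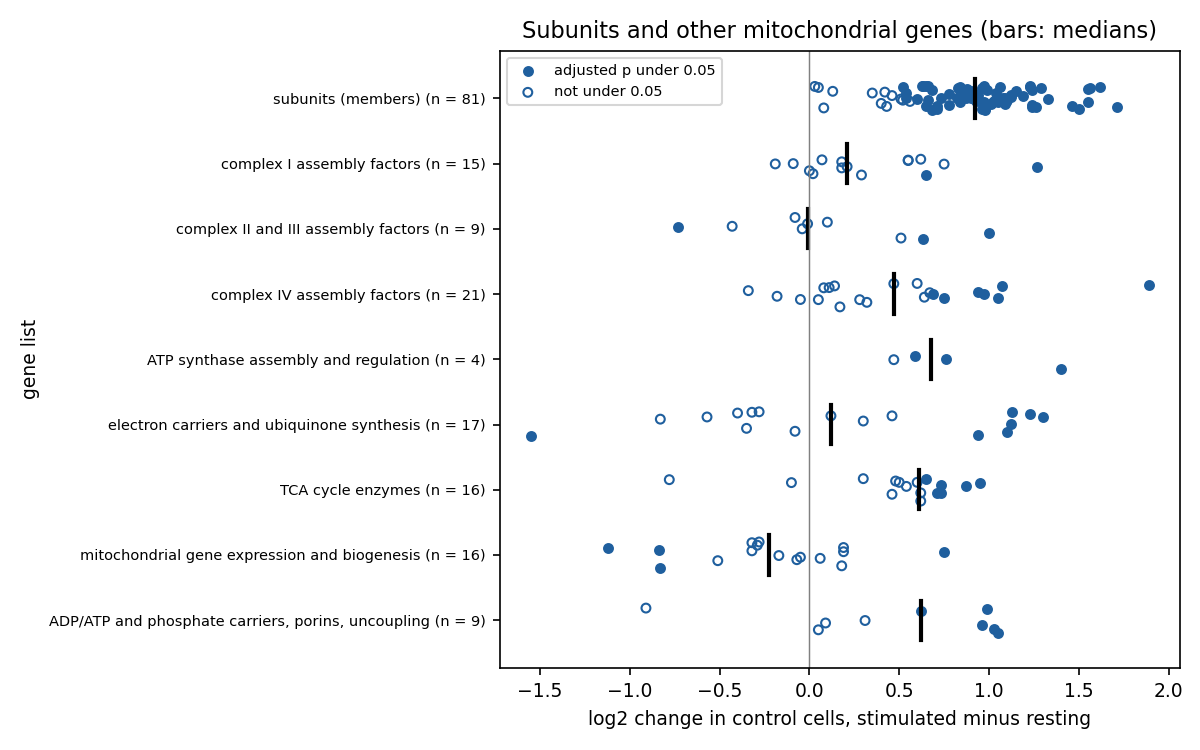
Change with stimulation in control cells (horizontal axis, log2) of each tested gene of the subunit set and of 8 lists of other mitochondrial genes (vertical axis), with black bars for medians and filled points for an adjusted p under 0.05. The subunits have the highest median (0.92), and the list of mitochondrial gene expression and biogenesis has the lowest (-0.23).

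Promoters were examined for letters of 3 motifs known from respiratory genes. RefSeq windows from 250 bases before to 50 after the start (build GRCm38.p6) were at hand for 69 of the 86 genes. On either strand, the NRF1 core GCGCATGC was present in 10 of 69 (14.5%) against 3.05% of 27025 genes, the ETS core CCGGAAG in 17 (24.6%) against 9.93%, and the YY1 core AAGATGGC in 10 (14.5%) against 3.19%. At least 1 of the 3 was present in 31 of 69 (44.9%) against 14.9%. The windows of the set also had a higher median GC content, 58.3% against 52.8%, and its part in these shares was not tested. A set of 5 genes held both the NRF1 and the ETS core: Atp5k, Atp5l, Cox6a1, Sdhb and Uqcr11. The YY1 core lay after the start in 8 of 10 genes and read forward in 9. As a description, the median change with stimulation in control cells was 0.86 with and 0.96 without the NRF1 core, 0.90 and 0.96 for the ETS core and 1.02 and 0.92 for the YY1 core. A match describes letters only, and a gene without one may hold another form of the site.

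The 200 bases before the start are shown, 5′ to 3′ on the gene's strand, for genes with both cores that have a match there. They are also shown for Ndufa11, the complex I gene with the NRF1 core and the largest increase in control cells. Cox7a2l, the flattest gene in control cells, was added. Ndufa11 and Cox7a2l were picked after their values were seen. Capitals mark motif letters (the NRF1 core or its reverse complement GCATGCGC, the ETS core or its reverse complement CTTCCGG). Overlapping matches on both strands give the palindrome GCGCATGCGC, present in the shown windows of Atp5k, Cox6a1 and Ndufa11. In Uqcr11 the last NRF1 match runs across the start, so that its first bases alone are shown, and the ETS cores of Atp5k and Sdhb lie after the start. No core was found in the window of Cox7a2l.
Atp5k (chr5:108434400-108434599, minus strand): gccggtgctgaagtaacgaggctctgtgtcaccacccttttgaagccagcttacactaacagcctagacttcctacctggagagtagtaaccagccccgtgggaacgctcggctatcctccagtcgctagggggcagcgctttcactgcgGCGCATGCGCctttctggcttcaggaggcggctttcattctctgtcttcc
Cox6a1 (chr5:115348959-115349158, minus strand): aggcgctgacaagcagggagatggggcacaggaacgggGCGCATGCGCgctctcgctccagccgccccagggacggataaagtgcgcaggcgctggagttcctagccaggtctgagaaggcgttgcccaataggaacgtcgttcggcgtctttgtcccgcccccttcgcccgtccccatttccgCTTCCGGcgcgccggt
Sdhb (chr4:140961071-140961270, plus strand): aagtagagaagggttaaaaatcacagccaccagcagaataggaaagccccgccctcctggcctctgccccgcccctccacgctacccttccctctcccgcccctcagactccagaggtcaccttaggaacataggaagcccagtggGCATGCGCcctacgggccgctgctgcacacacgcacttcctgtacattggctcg
Uqcr11 (chr10:80406822-80407021, minus strand): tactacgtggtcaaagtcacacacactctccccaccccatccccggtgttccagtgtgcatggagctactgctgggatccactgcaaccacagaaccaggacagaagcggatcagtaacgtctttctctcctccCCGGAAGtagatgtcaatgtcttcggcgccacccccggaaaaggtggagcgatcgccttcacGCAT
Ndufa11 (chr17:56717562-56717761, plus strand): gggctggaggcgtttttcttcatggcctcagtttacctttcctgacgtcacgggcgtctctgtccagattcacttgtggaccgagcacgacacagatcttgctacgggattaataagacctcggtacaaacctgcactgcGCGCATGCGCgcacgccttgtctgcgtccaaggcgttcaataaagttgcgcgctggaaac
Cox7a2l (chr17:83514334-83514533, minus strand): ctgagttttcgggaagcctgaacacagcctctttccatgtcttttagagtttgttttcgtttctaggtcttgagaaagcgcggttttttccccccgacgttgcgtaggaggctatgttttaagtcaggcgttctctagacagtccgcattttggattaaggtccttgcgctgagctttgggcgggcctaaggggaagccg
With stimulation in control cells these genes changed by 1.07 (Atp5k), 1.04 (Cox6a1), 0.78 (Sdhb), 1.24 (Uqcr11), 1.01 (Ndufa11) and 0.03 (Cox7a2l).

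No subunit gene passed the test between knockout and control. In resting cells 0 of 81 were called in limma, against 0.0131% of all features. An unadjusted p under 0.05 was found for 8 of 81, against 4534 of all 22981 features. The median difference was -0.30, and 77 of 81 were lower in knockout cells, as were 9331 of the 10264 features above background on all arrays. In 44 genes every knockout array lay below every control array, a pattern shown by 26.7% of all features and 45.8% of those above background on all arrays. The share in the set, 44 of 81, was thus not far from that of features of like brightness, whose median difference was -0.35. By smallest p the genes were Sdha (-0.51, SE 0.20, adjusted p = 0.233) and Sdhc (-0.42) in complex II, Ndufa6 (-0.44) and Ndufa8 (-0.46) in complex I, Uqcrh (-0.43) and Uqcrc2, a core protein (-0.34), in complex III, Cox7a2l (-0.42) and Cox6a2 (1.73) in complex IV, and Atp5d (-0.51) and Atp5g2 (-0.46) in ATP synthase. Except for Cox6a2, these differences spanned -0.51 to -0.34.

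In stimulated cells 0 of 81 were called, against 3.46% of all features (796). An unadjusted p under 0.05 was found for 35 of 81, against 5082 of all 22981 features and 2683 of the 10264 above background on all arrays. The median difference was -0.41, and 80 of 81 were lower in knockout cells, the exception being Cox6b2 at 0.12. Lower levels were also found for 8506 of the 10264 features above background on all arrays. For 41 genes all knockout arrays lay below all control arrays, against 14% of all features and 28.1% of those above background on all arrays, whose median difference was -0.31. The lowest adjusted p belonged to Ndufv3 (-0.72, SE 0.18, adjusted p = 0.0586), followed within the complexes by Uqcr11 (-0.76, adjusted p = 0.0682), Atp5g1 (-0.84, adjusted p = 0.0773), Ndufb6 (-0.72, adjusted p = 0.0848), Uqcrq (-0.83, adjusted p = 0.0849) and Cox6a1 (-0.63, adjusted p = 0.0852). For all 6 the stimulated control arrays and knockout arrays were apart on the brightest probe. The second probe of Ndufv3 gave a difference of -0.09 only. Sdhb (-0.53), Sdhc (-0.64), Cox4i1 (-0.44) and Atp5d (-0.60) had adjusted p from 0.114 to 0.222. With the replicate number as a block, 4 of 81 genes passed as lower in knockout cells, which is 4.94% against 4.53% of all features under the same fit: Ndufv3 (adjusted p = 0.0275), Uqcrq (0.0433), Ndufb11 (0.0475) and Atp5g1 (0.0493). The brightest probe of Ndufb11 gave a difference of -0.68 and its second probe one of -0.19. With the test kept to features above background on all arrays 12 of 78 passed as lower, or 15.4% against 13.4% of all features tested there. Both shares were near the background and are no result about the set. Without control stimulated replicate 2, 8 of 81 passed as lower (9.88% against 4.12% of all features). The share of features of like brightness was not computed there, and the count needs 1 array left out. It is thus no result about the set either.

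The level of the whole set against control moved with the scaling of the arrays. Scaled to the 75th percentile of the probes detected on all arrays, the median knockout difference of the set was 0.05 in resting and -0.01 in stimulated cells, and after quantile normalization it was 0.05 and 0.01. Scaled to the array median it was -0.90 and -0.97, with -0.81 and -0.58 for all features. The direction of the knockout difference for the set as a whole thus changed with the scaling. The median of all features moved as well, to 0.14 and 0.39 with the detected probes and to -0.05 and 0.09 with quantile normalization. In stimulated cells the set lay below all features under each of the 5 scalings, and at rest under all but quantile normalization. This order was not tested, and features of like brightness were not compared under the other scalings. The stimulation change kept its direction under all 5 scalings shown, with medians of 0.46 to 0.93 in control and 0.38 to 0.81 in knockout cells, while the number of genes called in control cells ranged from 15 with median scaling to 67.

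**Figure D5:**
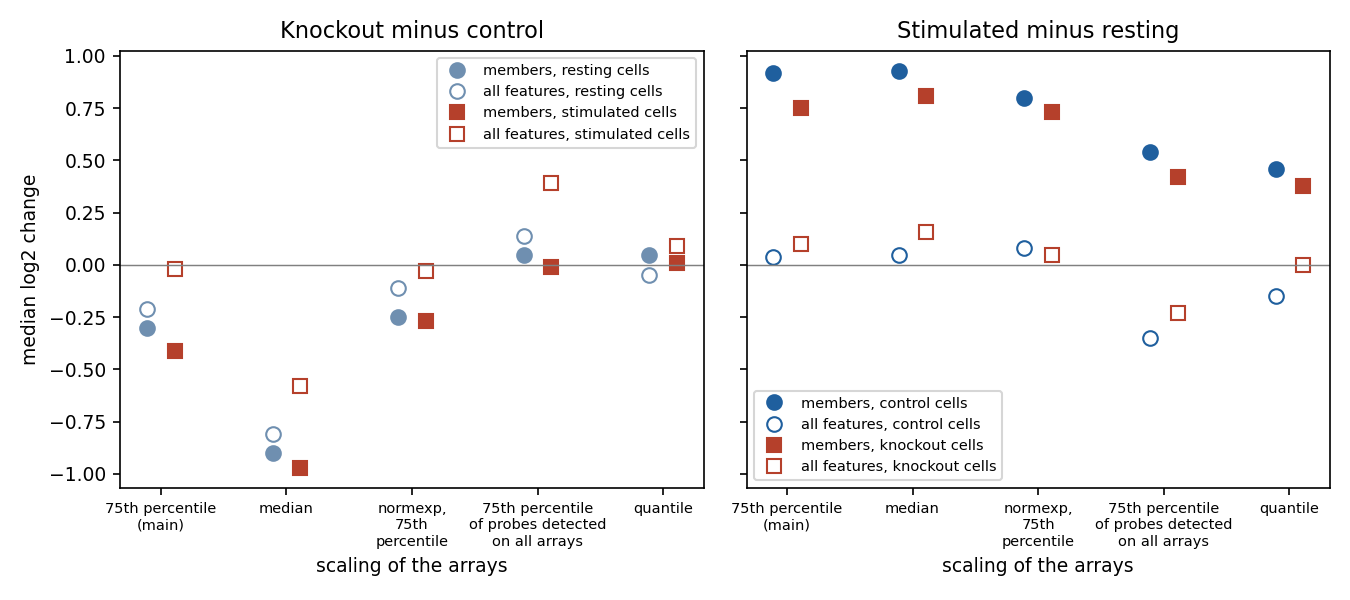
Median log2 change (vertical axis) of the 81 subunit genes (filled) and of all features tested (open) under 5 ways of scaling the arrays (horizontal axis), for knockout minus control (left) and stimulated minus resting (right). On the left the median of the set runs from -0.97 to 0.05 and follows the scaling, and on the right it stays between 0.38 and 0.93.

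Markers of other cell types moved with the genotype as well. In knockout resting cells 10 of 11 myeloid markers were higher, none of them called, with a median of 1.60 and a summed level between 6.45 and 7.16 against 5.50 to 6.27 in controls. After stimulation 4 of 11 were called higher, with C1qc at 4.01 and C1qa at 3.43 the largest, and the summed level was 4.86 to 5.22 against 3.43 to 4.73. The NK cell markers rose in stimulated knockout cells for 4 of 7 (summed level 7.78 to 8.73 against 5.14 to 5.22). Of the T cell markers 7 of 8 were higher in knockout cells in each state, with none called at rest and 1 after stimulation. Their summed level was 6.32 to 6.53 against 5.78 to 6.10 after stimulation. At rest it overlapped, at 3.58 to 4.51 against 3.74 to 4.08. The erythroid markers had a median difference of 1.91 at rest, with none of 5 called and 1 of 5 without overlap. Their summed level overlapped there, at 7.90 to 9.60 against 4.42 to 8.29, the lowest being control resting replicate 3. After stimulation 2 of 5 were called higher, among them Hba-a1 at 4.63, and the summed level was 3.41 to 5.74 against 1.69 to 2.79. Of the myeloid list Csf1r and Itgam alone were above background on all 12 arrays. All 10 B cell markers were lower in knockout resting cells, none of them called, with a median of -0.56, 7 at an unadjusted p under 0.05 and 8 without overlap. Of the 10264 features above background on all arrays, 9331 were lower at rest (median -0.35) and 45.8% were lower without overlap. Cd79a, whose locus holds the Cre, had -1.54, and the summed level of the B cell list was 9.52 to 9.75 against 9.96 to 10.16. After stimulation Cd79a was called lower in knockout cells (-1.10, adjusted p = 0.0343), and the other 9 did not pass. There 7 of the 10 were higher in knockout cells, with a median of 0.06. None of the 8 lists of other mitochondrial genes had a call in limma between knockout and control in either state, with 0 to 8 of their genes at an unadjusted p under 0.05. Over all 22981 features 4534 were under it at rest and 5082 after stimulation. The part of these cells in the levels of the subunits was not tested.

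The response to stimulation was not shown to differ between the genotypes for any subunit gene. Taken as the knockout difference in stimulated cells minus that in resting cells, 0 of 81 were called, against 0.144% of all features. An unadjusted p under 0.05 was found for 2 of 81, Ndufab1 (-0.62, adjusted p = 0.432) and Cox6a2 (-2.64, adjusted p = 0.151), against 2445 of all 22981 features. The median was -0.12, against 0.08 over all features and 0.03 over those above background on all arrays, with 66 of 81 negative. Negative values were also found for 9959 of all 22981 features and for 4747 of the 10264 above background on all arrays. The largest values with the smallest p in the complexes, beside these, were -0.49 for Ndufv3, -0.39 for Cox6a1, -0.59 for Uqcrq and -0.46 for Uqcr11, -0.56 for Atp5g1 and -0.22 for Atp5g3, and in complex II -0.25 for Sdhb and 0.24 for Sdha, with adjusted p from 0.550 to 0.885. On slide 1 alone the median was 0.01, with 38 of 81 negative. Without control stimulated replicate 1 it was -0.03, with 49 of 81 negative.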

How the data were processed

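Per the labels, amplified splenic B cell RNA carrying Cy3 was measured on 12 one-colour Agilent mouse arrays. The deposited values used are processed intensities on a linear scale, background-subtracted by the authors' scanner software (Agilent Feature Extraction 10.7.3.1 per the file headers, 9.1 per the submitters' processing notes). Further steps were computed here. Outlier spots were left out, each log2 intensity had the 75th percentile of that array's 59305 spots that are no controls subtracted, and repeat spots were averaged. A probe had to be well above background on every array of some group. Names came from a RefSeq table by transcript accession (26413 of 55681 probes), and a gene took its brightest probe, giving 22981 features. Promoter coordinates are those of the RefSeq table (GRCm38.p6).

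Limma 3.58.1 (R 4.3.3) fitted 4 group means on 12 arrays, with 8 residual degrees of freedom, and Benjamini-Hochberg adjustment over all features at 0.05. The number of arrays limits the precision, and 12 arrays allow no interval from counts. The fit was tested on simulated data. Same-numbered arrays deviated together in the stimulated knockout comparison (correlations 0.35, 0.33 and 0.48) and for stimulation in control cells (0.42, 0.43 and 0.51). They did so less in the resting knockout comparison (-0.12, 0.20 and 0.39) and for stimulation in knockout cells (0, 0.15 and 0.39). Replicates 1 and 2 lay on slide 1, replicate 3 on slide 2. A pairing of same-numbered arrays and an effect of the slide thus cannot be told apart in these correlations. Alternatives covered scaling, background correction, filters, probe choice, blocks, slides and left-out arrays. The members, gene lists and motifs were chosen with earlier results of these data known. Genes were named by rule: per comparison and complex the up to 4 called genes with the largest change in each direction, or the 2 with the smallest p, all Sdh genes, paralogue sets, dim genes and genes whose probes disagree, and up to 2 genes of each other list; exceptions are named as such.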

Additional observations from a re-analysis of the deposited data

Results flagged for a closer look

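Cox6a2 lay on opposite sides in the 2 states: every knockout array was above every control array at rest (difference 1.73) and below them after stimulation (difference -0.91), so that the difference of the differences was -2.64 (SE 0.65). The test of this interaction in limma gave an unadjusted p of 0.00201 and an adjusted p of 0.151, which misses the threshold. Its size was -3.51 on slide 1 and -0.92 on slide 2, and 4 of the 12 arrays were not well above background for this gene. It passed the filter through knockout resting cells alone, where it was highest (3 of 3 arrays above background, against 1 in control resting cells and 2 in each stimulated group), so the difference is a description of a gene that this group admitted.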

How the results depend on the processing

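Of the medians over the set, the stimulation change kept its sign under every alternative run, and the knockout difference did not. Quantile normalization gave medians of 0.05 (knockout, resting), 0.01 (knockout, stimulated), 0.46 (stimulation, control) and 0.38 (stimulation, knockout). For stimulation 36 genes were called in control cells (35 higher and 1 lower) and 26 in knockout cells. Over all 22981 features 6595 and 4554 were called in either direction. The percentile over detected probes gave 0.05, -0.01, 0.54 and 0.42 in the same order. Median scaling gave -0.90 and -0.97 for the knockout, with 15 and 1 genes called for stimulation in control and knockout cells. Over all 22981 features it called 3346 and 1683 in either direction, a larger share than that of the set in knockout cells. Without the filter 33 and 8 were called, with 2 groups only 40 and 31, on slide 1 only 25 and 4, where the interaction median was 0.01, and without both arrays of control replicate 1 27 in control cells. Over all features the calls in either direction were 3883 and 1606 of 49286 without the filter and 4537 and 2988 of 22981 with 2 groups only. They were 3545 and 1484 of 23423 on slide 1 only, and 3418 of 25781 without both arrays of control replicate 1. The 4 genes on slide 1 were not above the share of all features. In the stimulated knockout comparison 12 genes were called with the filter on all 12 arrays, 4 with the replicate block and 3 with the slide block. These were 15.4%, 4.94% and 3.70% of the set, near the 13.4%, 4.53% and 3.55% of all features called lower, and are no result about it. The replicate block ended no call and otherwise moved no count by over 1.5 times. With 1 array left out, the calls ranged from 0 to 8 (knockout, stimulated; median -0.54 to -0.33), from 44 to 72 (stimulation, control; 0.78 to 1.02) and from 10 to 53 (stimulation, knockout; 0.68 to 0.82), and stayed at 0 for knockout, resting (median -0.37 to -0.23) and the interaction (-0.25 to -0.03). Signs turned for genes with small changes. Under quantile normalization Cox4i1 was 0.06 (knockout, stimulated), stimulation in control cells gave -0.02 for Cox6b2, -0.42 for Cox7a2l, -0.40 for Ndufa6, -0.35 for Sdha and -0.13 for Uqcrh, and in knockout cells -0.05 for Cox7a2l, -0.24 for Ndufa6 and -0.04 for Sdha. With the percentile over detected probes Uqcrc2 was 0.01 (knockout, resting), stimulation in control cells gave -0.31 for Cox6b2, -0.36 for Cox7a2l, -0.26 for Ndufa6, -0.33 for Sdha and -0.03 for Uqcrh, and in knockout cells -0.08 for Cox7a2l, -0.16 for Ndufa6 and -0.04 for Sdha. In control cells normexp gave -0.09 for Cox7a2l and -0.04 for Sdha, slide 1 only -0.12 for Cox6b2 and -0.08 for Cox7a2l (0.10 for Cox6b2 in knockout cells), and omitting both arrays of control replicate 1 -0.09 for Cox6b2 and for Sdha. With 1 array left out, stimulation ranged from -0.07 to 0.28 for Cox6b2, -0.10 to 0.15 for Cox7a2l and -0.10 to 0.14 for Sdha in control cells and from -0.21 to 0.02 for Cox6b2 in knockout cells. The cause was not tested. The other values of the named genes kept their sign, with 115 calls lost and 24 gained over 1925 values. Signal over background limits Cox6a2 most, with 4 of 12 arrays not well above it.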
